A study of Homo sapiens with 6 samples.

Results

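Metallothionein and zinc response transcripts were measured by RNA-Seq in DU-145-DR/tet-MUC1shRNA cells, with and without doxycycline (DOX). The 10 genes were taken by symbol, by a rule that has no threshold on a measured value, and are 10 of the 28008 genes in the count table. They are 6 metallothioneins (MT1E, MT1F, MT1G, MT1M, MT1X and MT2A), the transcription factor MTF1, the zinc exporter SLC30A1 and the zinc importers SLC39A10 and SLC39A14. DU-145 is an established human prostate cancer line, and DU-145-DR cells were selected from it in rising concentrations of docetaxel (DTX). The cells carry a hairpin against MUC1 in the pLKO-tet-puro vector, were selected in puromycin and make the hairpin when DOX is added. The DOX-negative group was 3 cultures given 0.1% DMSO as vehicle, and the DOX-positive group was 3 cultures given 500 ng/ml DOX for 7 days. Docetaxel selection and the hairpin vector were shared by both groups, although the treatment labels name only docetaxel resistance for the DOX-negative samples and only the hairpin for the DOX-positive samples. Whether the line is 1 clone is not given in the sources used here. The comparison asks which of these transcripts changed when MUC1 was silenced in docetaxel-resistant cells. DOX was given to 1 group only, and libraries from cells with a control hairpin and DOX were not analysed here, so silencing of MUC1 and exposure to DOX cannot be told apart.

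Metallothioneins are small cysteine-rich proteins that bind zinc, copper and cadmium through their thiols and buffer the free metal of the cell. When cytosolic zinc rises, the zinc finger protein MTF1 binds metal response elements in the promoters of the metallothioneins and of SLC30A1, which encodes the exporter ZnT1 of the plasma membrane. SLC39A10 (ZIP10) and SLC39A14 (ZIP14) carry zinc into the cytosol, and ZIP14 also carries iron and manganese. The normal prostate is known for its high zinc content, which falls in prostate cancer. Doxycycline, like other tetracyclines, binds divalent metal ions.

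Libraries held between 15092691 and 23243713 counts, so that 3 counts, the floor used here for a gene that is not detected, were worth between 0.129 and 0.199 CPM, the read count of a gene relative to the scaled total of its library. MUC1 checked the labels: it measured 21.3, 24.7 and 19.7 CPM in the DOX-negative libraries and 3.27, 3.86 and 4.43 CPM in the DOX-positive libraries. Its log2 fold change was -2.52 with an SE of 0.146 (edgeR adjusted p = 4.47e-11), which left 17.4% of the DOX-negative level. All 4 epithelial markers were present and all 4 rose, and their summed level ranged from 586 to 651 CPM without DOX and from 1077 to 1164 CPM with DOX. The luminal prostate markers KLK3, KLK2 and TMPRSS2 were at or under the floor in all libraries. Summed leukocyte markers stayed at or below 0.479 CPM, with PTPRC, CD3E and LYZ at or under the floor, and summed fibroblast markers at or below 5.48 CPM, with DCN and LUM at or under it. The epithelial markers moved with DOX in the same libraries as the zinc genes, and their part in the results was not tested. In these bulk libraries, fewer cells with a transcript and less transcript per cell cannot be told apart.

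The metal response element is short, and its copies can be read directly in the promoters. The core was searched as TGCACNC or TGCGCNC on both strands, from 250 bases before to 50 bases after each RefSeq transcription start. RefSeq promoter windows (GRCh38) were matched for MT1X, MT2A, MTF1, SLC30A1 and SLC39A10, which is 5 of the 10 genes, and MT1E, MT1F, MT1G, MT1M and SLC39A14 had no entry. The MT2A window held 8 cores, of which 6 were TGCACNC and 2 were TGCGCNC. MT1X held 4 cores and SLC30A1 held 2. SLC39A10 held 1 core at 1 of its 2 starts and 0 at the other, and MTF1 held 0. Among all 35116 promoter windows of the same length, 29.6% held at least 1 core, 8.6% at least 2, 0.601% at least 4 and 0.0199% (7 windows) at least 8. No core overlapped another in these windows. MT1H, a metallothionein gene of the same cluster, also held 8, and MT1B held 3. A match is a description of letters and not a mapped binding site.

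Windows of 30 bases around the core closest to 50 bases before the start are shown because this core had nearly the same place in 4 of the 5 metallothionein windows matched (not MT4) and in that of the exporter. It lay at bases -53 to -47 in MT1B, MT1H and MT1X and at -54 to -48 in MT2A. In SLC30A1 it lay on the other strand, at -49 to -43. These positions count from RefSeq starts, which differ from the GENCODE gene positions given below. In GENCODE, this MT2A core lies inside the gene, which begins at 56608199. The SLC30A1 gene begins at 211578742 there, downstream of its RefSeq window. Each window is written 5′ to 3′ along the gene with the core in capitals, and a core on the other strand appears as its reverse complement (GNGTGCA).
MT2A, chr16:56608519-56608548, plus strand: ggcggggctttTGCACTCgtcccggctctt
MT1X, chr16:56682406-56682435, plus strand: ggcggggcctcTGCGCCCggccctcttccc
MT1H, chr16:56669750-56669779, plus strand: ggcagggtctcTGCACCCggctccctcccc
MT1B, chr16:56651822-56651851, plus strand: ggcggggcctcTGCACCCcaccacctcccc
SLC30A1, chr1:211579192-211579221, minus strand: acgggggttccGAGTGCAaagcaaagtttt

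The next core upstream lay on the other strand in each of the 4 metallothioneins, at bases -78 to -72 in MT1X and MT1H, at -79 to -73 in MT1B and at -88 to -82 in MT2A. These windows are shown because a pair of cores on opposite strands was the arrangement that the 4 genes had in common, as seen after the search.
MT2A, chr16:56608485-56608514, plus strand: cagcgcggggcGTGTGCAggcagcgcccgg
MT1X, chr16:56682381-56682410, plus strand: tcagcaggggcGGGTGCAaggacgaggcgg
MT1H, chr16:56669725-56669754, plus strand: ctcagtgggtcGGGTGCAagggtggggcag
MT1B, chr16:56651796-56651825, plus strand: tcagcaggggtGAGTGCAagggccagggcg
Farther from the start, MT2A, MT1H and MT4 each held cores of both strands within a single window of 30 bases, which MT1X and MT1B did not. The windows of MT2A and MT1H are shown.
MT2A, chr16:56608412-56608441, plus strand: gcccGTGTGCAgagccgggTGCGCCCggcc
MT1H, chr16:56669636-56669665, plus strand: ccgcgGTGTGCAccgaccTGCGCTCagggt

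**Figure D1:**
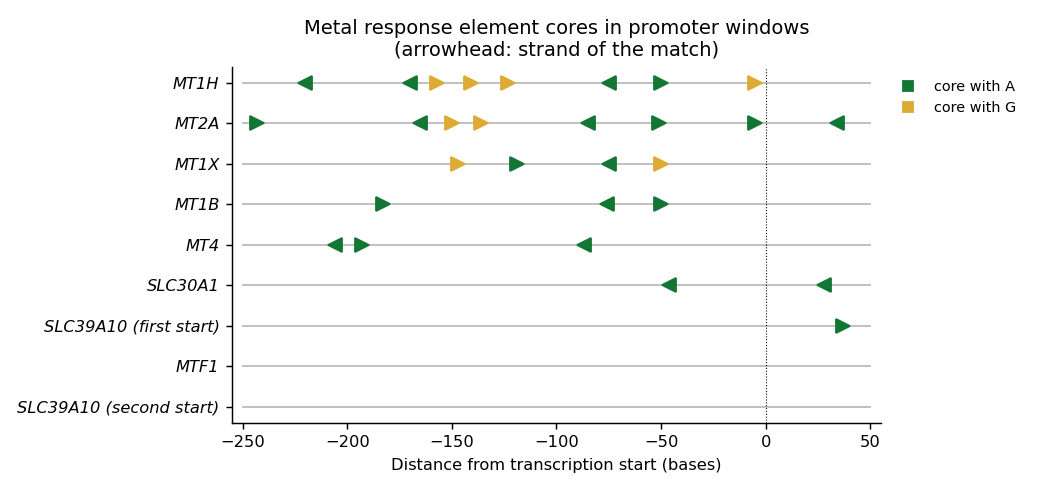
Position of each metal response element core in the promoter windows, in bases from the transcription start on the horizontal axis, with 1 line per window. Arrowheads show the strand of the match and colour shows the form of the core; MT1H and MT2A hold 8 each, and MTF1 and 1 of the 2 SLC39A10 starts hold 0.

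Transcripts of 6 of the 10 genes rose with DOX and those of SLC39A10 fell. MT2A rose most, 2.07-fold, and MT1E, MT1X, MT1F, SLC30A1 and SLC39A14 rose by less. In the edgeR test with Benjamini-Hochberg adjustment over 14292 genes, 26.7% of all genes passed an adjusted p of 0.05, with 13.0% of all genes higher and 13.7% lower. Of the 10 members, 9 passed the filter on low counts, 7 passed the test (6 higher and 1 lower), and MT1M and MTF1 did not. CPM ranges of the groups were apart for 8 of the 9 tested members, all but MTF1, against 39.8% of all genes tested. The median log2 fold change of the 9 was 0.42, beside -0.0034 over all genes. From the deposited TPM, which carried a shift of -0.32 (pseudocount 1) or -0.39 (pseudocount 0.1) in the median of all genes, SLC39A10 alone passed and the signs of SLC30A1, SLC39A14 and MTF1 turned.

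**Figure D2:**
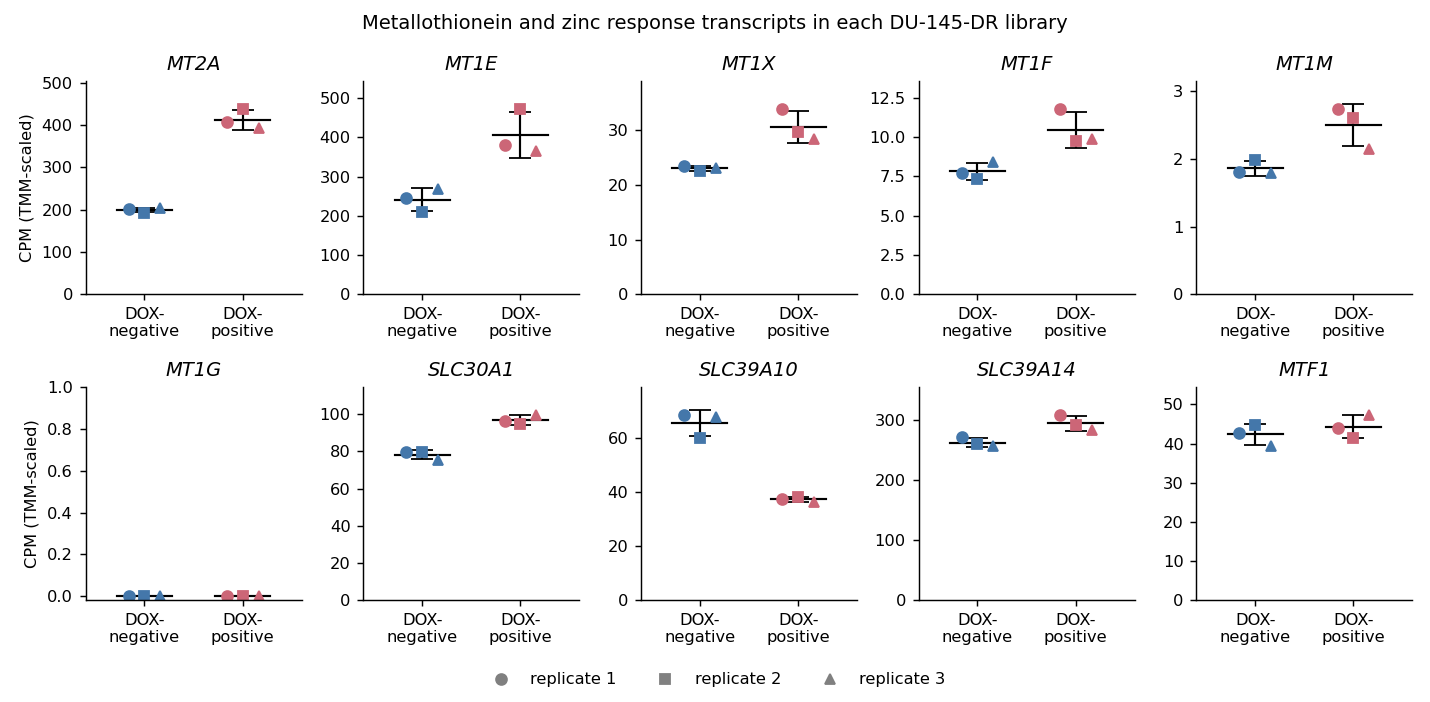
Library-scaled CPM (linear axis from 0) of each of the 10 genes in the 3 DOX-negative (blue) and 3 DOX-positive (red) libraries, with marker shape giving the replicate number, the long bar the mean and the error bar the SD. All 3 DOX-positive values lie above the DOX-negative values for MT2A, MT1E, MT1X, MT1F, MT1M, SLC30A1 and SLC39A14 and below them for SLC39A10, while MTF1 overlaps and MT1G is at 0.

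MT2A encodes the main metallothionein 2 isoform and lies on the plus strand of chromosome 16 (GRCh38, chr16:56608199-56609497, GENCODE release 29). It measured 201, 192 and 203 CPM in the DOX-negative libraries and 407, 438 and 392 CPM in the DOX-positive libraries. The lowest DOX-positive library stood well above the highest DOX-negative library. The mean went from 199 ± 5.66 to 412 ± 23.5 CPM (SD, n = 3 per group), a log2 fold change of 1.05 (SE 0.0629, 95% CI 0.92 to 1.18, edgeR adjusted p = 6.94e-11) or 2.07-fold. Of the 8 cores in its promoter window, 4 are in the windows printed above.

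MT1E, a metallothionein 1 gene at chr16:56625475-56627112, was the other abundant member. It measured 244, 210 and 269 CPM without DOX and 380, 473 and 366 CPM with DOX. All DOX-positive libraries were higher, with the DOX-positive replicate 2 library standing above the other 2. The log2 fold change was 0.75 (SE 0.0889, 95% CI 0.57 to 0.94, edgeR adjusted p = 1.55e-06) or 1.69-fold, from 241 ± 29.5 to 406 ± 58.1 CPM (SD, n = 3).

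MT1X (chr16:56682424-56684196) measured 23.5, 22.5 and 23.1 CPM without DOX and 34.0, 29.7 and 28.4 CPM with DOX. The DOX-negative libraries lay close together and all DOX-positive libraries were above them. The rise was smaller than that of MT2A, with a log2 fold change of 0.42 (SE 0.0959, 95% CI 0.22 to 0.61, edgeR adjusted p = 0.00254) or 1.33-fold. MT1F (chr16:56657694-56660698) measured 7.70, 7.36 and 8.40 CPM without DOX and 11.8, 9.76 and 9.88 CPM with DOX. The groups were apart, but the gap between the highest DOX-negative and the lowest DOX-positive library was narrow. Its log2 fold change was 0.43 (SE 0.140, edgeR adjusted p = 0.0273), and the call was lost without DOX-negative replicate 1 (adjusted p = 0.0813), when DOX-negative replicate 2 was left out (0.0844), or with DOX-positive replicate 1 left out (0.156).

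MT1M and MT1G were the low members of the family. MT1M (chr16:56632233-56633986) was counted 33, 39 and 36 times without DOX and 63, 50 and 32 times with DOX. Scaled to depth, this was 1.82, 1.99 and 1.79 CPM against 2.74, 2.61 and 2.15 CPM, and the groups did not overlap. The log2 fold change of 0.43 had an SE of 0.257, a 95% CI of -0.10 to 0.97 and an edgeR adjusted p of 0.229, which did not pass. In limma on TPM rescaled without 5 short noncoding RNAs, MT1M did pass (0.40, adjusted p = 0.0195). MT1G (chr16:56666731-56668065, minus strand) had 0 counts in all 6 libraries, which allows a level of up to 0.129 to 0.199 CPM per library and gave no test.

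MTF1, the metal-sensing transcription factor of the pathway, lies at chr1:37809567-37859620 on the minus strand. It measured 42.7, 44.8 and 39.5 CPM without DOX and 44.1, 41.6 and 47.3 CPM with DOX. The groups overlapped, with the highest library in 1 group and the lowest in the other. The log2 fold change was 0.064 (SE 0.0842, edgeR adjusted p = 0.620), and its 95% CI of -0.11 to 0.24 bounds a change in either direction. MTF1 is known to respond to zinc as a protein, which was not measured here.

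SLC30A1, the plasma membrane zinc exporter (chr1:211571568-211578742, minus strand), measured 79.4, 79.8 and 75.5 CPM without DOX and 96.1, 94.5 and 99.6 CPM with DOX. Libraries within each group lay close together and the groups were well apart. The log2 fold change was 0.31 (SE 0.0683, 95% CI 0.16 to 0.45, edgeR adjusted p = 0.00191) or 1.24-fold. From the deposited TPM the value was -0.087 (pseudocount 1), which was 0.23 above the median shift of all genes on that scale.

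SLC39A10, the importer ZIP10 (chr2:195575977-195737702, plus strand), was the member that fell. It measured 68.4, 59.8 and 67.8 CPM without DOX and 37.4, 38.1 and 36.4 CPM with DOX. The DOX-positive libraries lay close together, all below the lowest DOX-negative library. The log2 fold change of -0.81 had an SE of 0.0806 and a 95% CI of -0.98 to -0.64 (edgeR adjusted p = 1.33e-07), which left 57.1% of the DOX-negative level. This call was kept in each of 17 alternative settings, with log2 fold changes between -1.19 and -0.78.

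SLC39A14, the importer ZIP14 (chr8:22367249-22434129, plus strand), measured 272, 260 and 257 CPM without DOX and 309, 293 and 284 CPM with DOX. The groups did not overlap but lay near each other. Its log2 fold change of 0.17 (SE 0.0609, 95% CI 0.042 to 0.29) was just inside the threshold (edgeR adjusted p = 0.0448). The call was lost on leaving out any 1 of the 6 libraries (adjusted p between 0.0559 and 0.192) and in a fit with the replicate number as a block (0.0995).

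The plasma membrane exporter rose and SLC39A10 fell in the same libraries. In counts of the same library, SLC30A1 over SLC39A10 was 1.16, 1.33 and 1.11 without DOX and 2.57, 2.48 and 2.74 with DOX. Every DOX-positive ratio was above every DOX-negative ratio. This had to follow, since SLC30A1 alone was higher and SLC39A10 alone was lower in every DOX-positive library. A permutation test of the ratio therefore could not add to the values of the single genes. The importers SLC39A14 and SLC39A8 rose, so the ratio does not stand for the importers in general. In an exact 2-sided permutation test the p was 0.10, the smallest that 3 against 3 allows, and 0.133 after Benjamini-Hochberg adjustment over the 8 shares and ratios tested, which were chosen after the values were seen.

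All 16 metallothionein genes of the count table were summed to describe their pool. The pool was 502, 457 and 529 CPM in the DOX-negative libraries and 875, 990 and 834 CPM in the DOX-positive libraries. The highest DOX-negative library was below the lowest DOX-positive library, and the mean was 1.81 times as large with DOX. As a share of all counts, the pool went from 0.0501% to 0.0889%.

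MT2A and MT1E made up 88.7 ± 0.554% of the pool without DOX and 91.0 ± 1.00% with DOX (SD, n = 3). MT2A alone was 40.1%, 42.2% and 38.4% of the pool without DOX and 46.6%, 44.2% and 47.0% with DOX, so that its share was higher in every DOX-positive library. MT1E had the largest share in each DOX-negative library by counts and its shares overlapped between groups, with means of 48.5% and 45.0%. These shares, and the ratios below, are of counts without scaling to transcript length. Per length (TPM rescaled without 5 short noncoding RNAs), MT2A was instead above MT1E in each DOX-negative library. MT2A stood there at 3115, 3041 and 3022 TPM, and MT1E at 2849, 2496 and 3016 TPM. MT1X went from 4.67% to 3.43% of the pool, without overlap, although its own level rose. The ratio of MT2A to MT1X counts was 8.54, 8.54 and 8.78 without DOX and 12.0, 14.7 and 13.8 with DOX, and that of MT2A to MT1E was 0.823, 0.916 and 0.755 against 1.07, 0.926 and 1.07. Neither ratio overlapped between groups. Exact permutation p was 0.10 for both, the smallest possible (0.133 adjusted over the same 8).

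**Figure D3:**
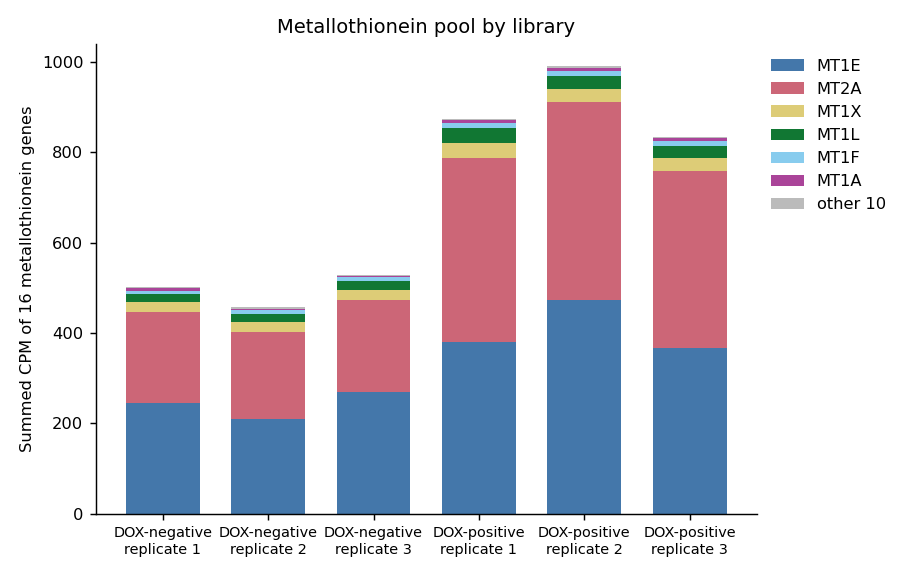
Stacked bars of summed CPM over the 16 metallothionein genes, 1 bar per library and 1 colour per gene, from 0. The 3 DOX-positive bars reach 834 to 990 CPM and the 3 DOX-negative bars 457 to 529 CPM, and MT2A and MT1E fill most of each bar.

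Levels of different genes were compared per transcript length, in TPM rescaled in each library without 5 short noncoding RNAs. Without DOX, MT2A stood at 3059 ± 48.9 TPM (rank 22 of 25541 genes) and MT1E at 2787 ± 266 TPM (rank 31), followed by MT1X at 498 TPM (rank 264). These metallothioneins were among the most abundant transcripts of the DOX-negative cultures. SLC30A1 and SLC39A14 had the same mean of 116 TPM and overlapping libraries, and MT1F followed at 101 TPM. SLC39A10 (32.1 TPM) and MT1M (31.0 TPM) overlapped, and MTF1 was the lowest detected member at 14.2 TPM. With DOX, MT2A reached 6263 ± 352 TPM and MT1E 4639 ± 671 TPM, and their libraries did not overlap. SLC30A1 (141 TPM) and SLC39A14 (128 TPM) then no longer overlapped, MT1F (134 TPM) overlapped both of them, and SLC39A10 (18.0 TPM) had moved below MT1M (40.9 TPM) and remained above MTF1 (14.6 TPM).

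Among the other metallothioneins, 9 of 12 listed genes were in the table and 3 were tested, of which 2 rose. MT1L, annotated as a transcribed pseudogene, measured 17.2, 17.5 and 19.3 CPM without DOX and 32.5, 28.7 and 27.9 CPM with DOX (log2 fold change 0.72, SE 0.100, edgeR adjusted p = 1.26e-05). MT1A, a metallothionein 1 gene, measured 5.61, 3.37 and 3.43 CPM without DOX and 5.62, 7.36 and 7.26 CPM with DOX. The replicate 1 libraries of the 2 groups were almost equal for MT1A, and its log2 fold change was 0.70 (SE 0.204, adjusted p = 0.0136). That call was lost without DOX-negative replicate 2 (adjusted p = 0.0640) or replicate 3 (0.0628). MT1DP was tested and did not pass, and MT1B, MT1H, MT1HL1, MT1JP, MT3 and MT4 held at most 2 counts in any library. MT1H had 0 counts in all libraries although its promoter window held as many cores as that of MT2A, so the number of cores and the level were not in the same order across genes.

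Along the cluster on chromosome 16, the detected genes were interleaved with genes at or near 0. MT2A, MT1L, MT1E, MT1M, MT1A and MT1F lay between 43.2 and 92.6 kb from the start of MT4, and MT1G, MT1H and MT1IP, all at 0 counts, lay between MT1F and MT1X, which starts at 117 kb. The 6 metallothioneins that passed the test (MT2A, MT1E, MT1X, MT1F, MT1L and MT1A) were all higher with DOX. In the order of the genes from MT4, their log2 fold changes were 1.05 for MT2A, 0.72 for MT1L, 0.75 for MT1E, 0.70 for MT1A, 0.43 for MT1F and 0.42 for MT1X. Among these 6, the values went down along the cluster except between MT1L and MT1E. Those differed by less than the SE of either (0.100 and 0.0889). The same held for MT1E and MT1A (SE 0.0889 and 0.204) and for MT1F and MT1X (SE 0.140 and 0.0959). The order within these pairs is therefore not resolved. Tested genes that did not pass broke the order. MT1M, between MT1E and MT1A, was at 0.43 (SE 0.257), and MT1DP, between MT1A and MT1F, was at 0.27 (SE 0.442). The order among the 6 was seen after the fit and was not tested.

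**Figure D4:**
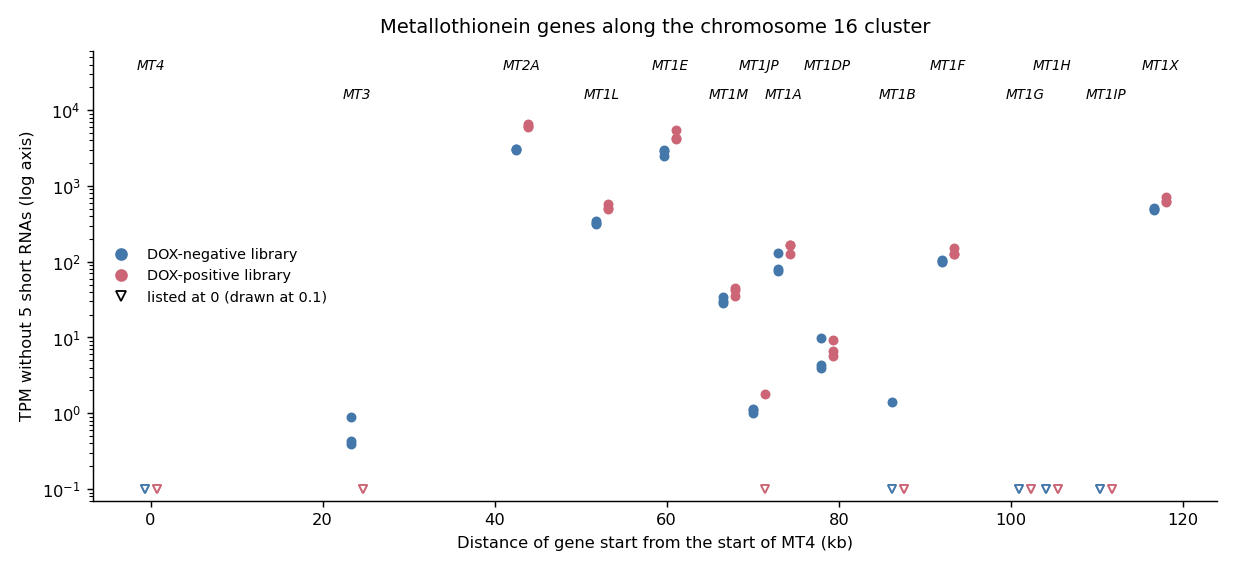
TPM rescaled without 5 short RNAs (log axis) of each metallothionein gene of the chromosome 16 cluster against the distance of the gene's start from the start of MT4 in kb, 1 point per library, with DOX-positive points (red) drawn to the right of DOX-negative points (blue). Genes listed at 0 are drawn as open triangles at 0.1; MT2A and MT1E are the highest and MT1G, MT1H and MT1IP are at 0 in every library.

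Metallothionein transcripts are short and alike, which bears on how reads were assigned to them. In GENCODE release 29, MT1X shared 45.1% of its 50-base windows with another gene and 19.1% of its 100-base windows, the latter all with the overlapping gene AC026461.1. The shares of 50-base windows were 20.2% for MT1G, 7.05% for MT1M, 5.34% for MT1E, 4.88% for MT2A and 3.59% for MT1F, and 0% of 100-base windows for each of these 5. SLC30A1, SLC39A10 and SLC39A14 shared 0% at both lengths. The level of MT1X is therefore the less certain by these shares. The read length and the treatment of reads with several matches are not given in the sources used here. The shares of MT1F, MT1A (5.76%) and MT1L (4.42%) were near those of MT2A and MT1E. How far the levels of the low metallothioneins depend on the assignment of reads was not tested. For comparison, the GENCODE transcripts taken for MT2A (786 bases) and MT1E (704 bases) fell in the class of 500 to 900 bases. The 483 tested genes of that class had a median log2 fold change of 0.013 and 8.08% of them were called higher. The MT2A gene in GENCODE starts upstream of the RefSeq start used for its promoter window. Counted from the RefSeq start, MT2A may belong to the shorter class given next. Among transcripts of up to 500 bases, the class of MT1X (450 bases), all 224 tested genes had a median of 0.018 with 3.57% called higher, and the 29 with a log2 CPM of at least 4 had a median of 0.28. The 186 genes of 500 to 900 bases at that level had a median of 0.0079. The classes include the metallothioneins themselves, with MT1X and MT1L (411 bases) among the 29 and MT2A and MT1E among the 186. They were chosen after the values were seen.

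The pathway around the members was read from lists of the remaining zinc transporters, copper handling, and metal and thiol stress genes. With the other metallothioneins these lists held 50 genes, of which 35 were tested and 12 passed, 5 of them as higher. Over all genes tested, 26.7% passed, 13.0% as higher and 13.7% as lower, so these totals alone do not set the lists apart. Of 9 other zinc exporters of the SLC30 family, 6 were tested, SLC30A4 rose and SLC30A7 fell, and the median log2 fold change was -0.10. SLC30A4, which loads zinc into vesicles, measured 27.1, 26.0 and 24.4 CPM without DOX and 40.2, 43.8 and 37.7 CPM with DOX (log2 fold change 0.65, SE 0.0902, edgeR adjusted p = 1.19e-05). SLC30A7, which loads zinc into the secretory pathway, overlapped between groups, and its log2 fold change was -0.27 (SE 0.0774, edgeR adjusted p = 0.0113), which did not pass without DOX-negative replicate 1 (adjusted p = 0.0870), DOX-negative replicate 3 (0.0503) or DOX-positive replicate 1 (0.0733).

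Of 12 other zinc importers of the SLC39 family, 9 were tested, SLC39A8 rose and SLC39A6 fell, and the median log2 fold change was -0.031. SLC39A8 (ZIP8), the closest relative of SLC39A14, measured 105, 106 and 113 CPM without DOX and 139, 157 and 152 CPM with DOX. All DOX-positive libraries were higher (log2 fold change 0.47, SE 0.0682, edgeR adjusted p = 2.33e-05). SLC39A6 (ZIP6), the closest relative of SLC39A10, measured 467, 433 and 486 CPM without DOX and 406, 426 and 401 CPM with DOX. The groups were close, its log2 fold change was -0.17 (SE 0.0623, edgeR adjusted p = 0.0488), and the call was lost under 8 of the 17 alternatives, the replicate block among them (adjusted p = 0.117). It was also lost without DOX-negative replicate 1 or 3 or DOX-positive replicate 1 or 3 (adjusted p between 0.140 and 0.170).

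Copper handling genes were tested in full, 9 of 9, and 1 passed. ATP7B, a copper-exporting ATPase, measured 14.1, 13.1 and 15.8 CPM without DOX and 9.32, 8.77 and 10.1 CPM with DOX (log2 fold change -0.62, SE 0.128, edgeR adjusted p = 0.000978). All DOX-positive libraries were lower. The median of the list was -0.053.

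Metal and thiol stress genes, several of which are induced by heavy metals through other factors than MTF1, were mostly lower where they passed. Of 8 tested genes 4 fell, 1 rose and 3 did not pass, with a median log2 fold change of -0.19. HMOX1, the heme oxygenase induced by heme, cadmium and oxidants, measured 29.2, 28.2 and 36.8 CPM without DOX and 24.1, 12.1 and 23.1 CPM with DOX. DOX-positive replicate 2 was much the lowest, and the log2 fold change was -0.67 (SE 0.165, edgeR adjusted p = 0.00424), past the threshold in edgeR but not in DESeq2 (adjusted p = 0.122). Leaving out that library gave -0.41 (edgeR adjusted p = 0.00790). GCLM, the modifier subunit of the enzyme that starts glutathione synthesis, went from 153 ± 7.76 to 115 ± 13.9 CPM (log2 fold change -0.41, SE 0.0783, edgeR adjusted p = 0.000446). Its catalytic partner GCLC overlapped between groups at -0.25 in log2 units (SE 0.0763, edgeR adjusted p = 0.0190), and lost the call without DOX-negative replicate 1 (adjusted p = 0.110), DOX-positive replicate 1 (0.118) or DOX-positive replicate 3 (0.105). SRXN1, which reduces overoxidised peroxiredoxins, went from 189 ± 7.77 to 149 ± 6.37 CPM (log2 fold change -0.34, SE 0.0640, edgeR adjusted p = 0.000414). HSPA1B, an inducible HSP70 gene, moved by 0.29 in log2 units (SE 0.0944, edgeR adjusted p = 0.0281), a value that turned to -0.079 and -0.10 from the deposited TPM and did not pass without DOX-negative replicate 1 or 2 or DOX-positive replicate 2 or 3. It also missed the threshold with the replicate block (adjusted p = 0.0512), with total counts (0.0522) and in rescaled TPM (0.216). Its near-identical neighbour HSPA1A was at 0.0014, so the split of reads between the pair is uncertain.

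**Figure D5:**
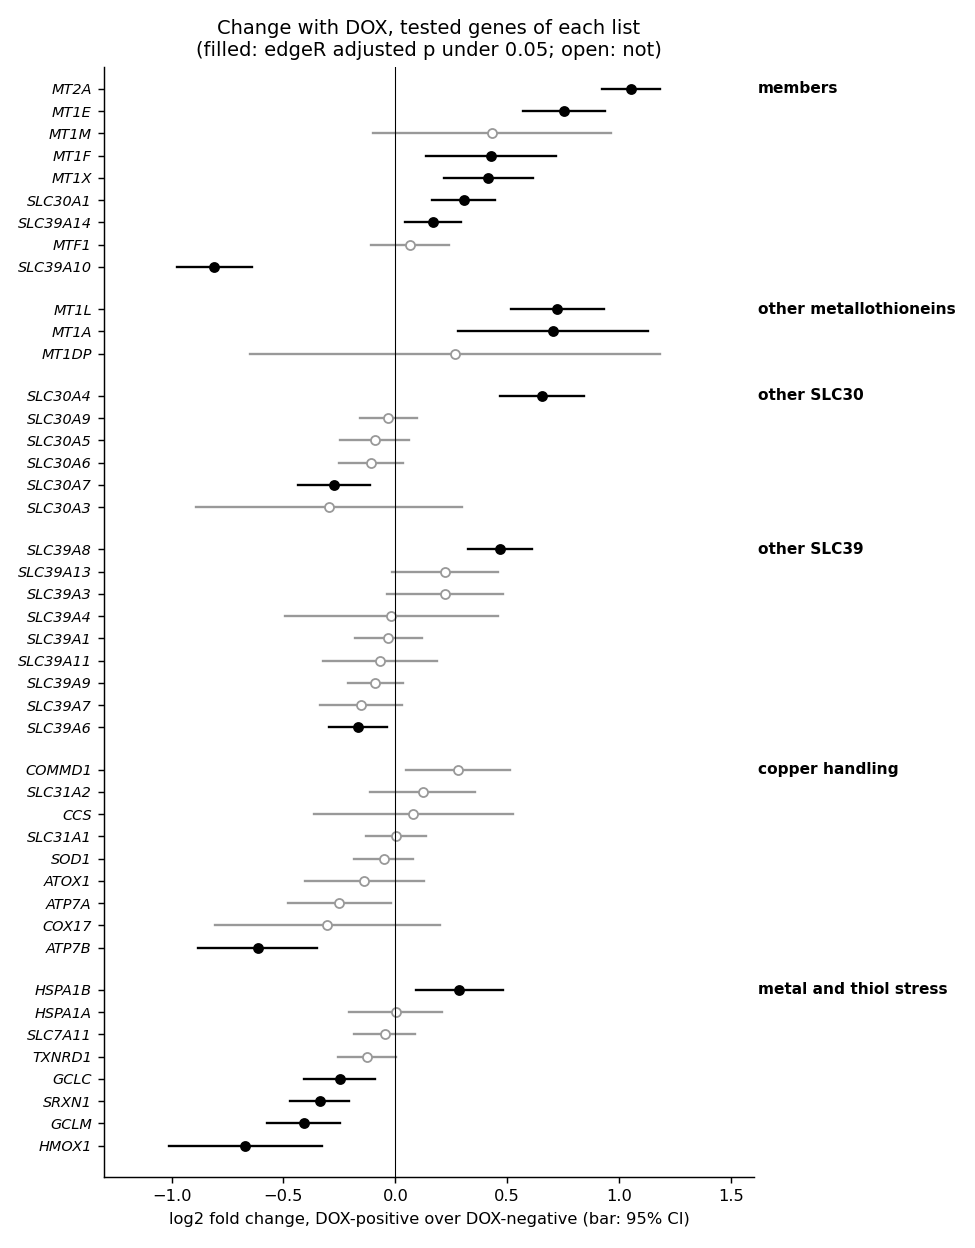
Log2 fold change (DOX-positive over DOX-negative, horizontal axis) of each tested member and list gene, with 95% CI as bars, filled points for an edgeR adjusted p under 0.05 and open points otherwise. MT2A is farthest to the right at 1.05 and SLC39A10 farthest to the left at -0.81.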

How the data were processed

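Total RNA of cells cultured in triplicate was made into stranded mRNA libraries, and per the labels the processing notes name STAR, DESeq2 and GRCh38 (hg38). The authors deposited raw read counts per gene for 28008 genes and TPM for 25546 genes. Versions, strand setting, counting and annotation are not given in the sources used here. All 6 libraries entered 1 fit of edgeR 4.0.16 in R 4.3.3 (filterByExpr, TMM, quasi-likelihood test, 2-sided) with group only, and p-values were adjusted by Benjamini-Hochberg over 14292 genes with a threshold of 0.05. P-values measure only the spread between these cultures. CPM are scaled by TMM. DESeq2 1.42.0 and limma 3.58.1 on log2(TPM + 1 or 0.1) were alternatives. The pseudocount shrinks fold changes of low genes, and values on those TPM scales also carry the median shift of all genes. A fall can therefore be larger there, as for ATP7B (-0.67 and -0.96, against -0.62 in edgeR). RN7SL1, RN7SL2, RN7SL3, RN7SK and RPPH1 held 34.4% to 64.4% of the TPM of a library, so levels per length were rescaled without these 5. Deviations of same-numbered replicates from their group means correlated at -0.070, -0.145 and -0.037, which gave no ground to pair them. Named with values were all members, MUC1, and each gene of the 5 pathway lists that passed. The rule for the members used symbols only, but the members, lists and alternatives were chosen with earlier results of these data known, so the selection was not independent of the data. Fits were tested on simulated counts. Gene positions and transcripts came from GENCODE release 29 and promoters from RefSeq (GRCh38). Protein sequences were not used here. Some luminal prostate markers are not reported here.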

Additional observations from a re-analysis of the deposited data

How the results depend on the processing

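Of the 10 members, 7 passed the threshold, and 5 to 7 did so under 15 of the 17 alternatives: 6 with the replicate block, with total counts, without a filter and with counts thinned to the smallest library, and 5 to 6 when each library was left out in turn. The deposited TPM left 1 member with either pseudocount (SLC39A10) and 1 of the 12 pathway genes (HMOX1), and called 443 (pseudocount 1) or 408 (pseudocount 0.1) genes in all, of which 401 and 374 were among the 3816 and 6.77% and 7.11% were higher. TPM reversed MTF1 (-0.29 and -0.32), SLC30A1 (-0.087 and -0.088), SLC39A14 (-0.22 and -0.23) and HSPA1B (-0.079 and -0.10). Against the median shift of all genes of -0.32 and -0.39 on those scales, the changes were 0.23 and 0.30 for SLC30A1, 0.098 and 0.16 for SLC39A14, 0.032 and 0.062 for MTF1, 0.98 and 1.05 for MT2A, 0.68 and 0.75 for MT1E and 0.24 and 0.28 for HSPA1B. The short RNAs held the smallest share of TPM in DOX-negative replicate 2. In TPM rescaled without them, chosen after seeing the data, 7 members passed: MT1M was gained and SLC39A14 lost (adjusted p = 0.114).

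MT2A, MT1E, MT1X and SLC30A1 kept their call in 15 of 17 alternatives, all but the 2 deposited TPM settings, and MT1F in 12. SLC39A14 kept it in 4, losing it also with total counts (adjusted p = 0.107), no filter (0.0506) and thinned counts (0.0701). Pathway genes past the threshold numbered 10 with the replicate block and 8 (without DOX-negative replicate 1) to 11 when a library was left out, and all genes called 3158 and 2784 to 3645. With total counts 39.3% of all calls were higher. Depth limits the metallothioneins at or under 3 counts, and the 3 cultures per group limit every p of a single ratio to 0.10.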
